A study of Homo sapiens with 3 samples.

Results

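Kelly neuroblastoma cells that grow in an intermediate dose of an ALK inhibitor were compared with drug-sensitive cells of the same line. The comparison uses 2 of the study's 3 single-cell libraries, 1 library on each side. The sensitive library was grown in DMSO, the vehicle, and the intermediate resistant library in 500 nM TAE684, an inhibitor of the ALK kinase; the fully resistant library, in 1 µM TAE684, is set beside them where a value calls for it. All 3 come from 1 established human cell line grown in the same medium, so no library holds tumour tissue, a patient's cells or the stroma of a tumour. A barcode counted as a cell at 5000 or more UMIs (unique molecular identifiers, each standing for 1 captured RNA molecule), 500 or more genes and at most 20% of UMIs from mitochondrially encoded genes. This gave 5415 sensitive and 6288 intermediate resistant cells, 11703 of the 18034 cells in the series. Of 32738 genes in the tables, 5045 reached a summed level of at least 20 CPM (a gene's UMIs per 1000000 UMIs of the library's cells) in either library and were tested.

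ALK is a receptor tyrosine kinase that neuroblastoma cells can depend on, and its signal runs through RAS and ERK to transcription factors of the ETS family and to feedback inhibitors of the pathway. Neuroblastoma arises from sympathetic precursors, and its cells can make catecholamines and store them with neuropeptides and granins in dense core granules. Several promoters of granule genes carry a cAMP response element, the binding site of CREB, which protein kinase A switches on.

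The 2 libraries were of like depth. Cells held 95119772 UMIs in the sensitive and 102449567 in the intermediate resistant library, which were 94.8% and 94.4% of the totals. Medians per cell were 16008 UMIs and 3625 genes in the first library and 15660.5 UMIs and 3413 genes in the second. Just inside the cell limit were cells of 5004 and 5001 UMIs, and just outside it barcodes of 4989 and 4999. The libraries shared 38 cell barcodes, where a random draw would share 46.2. Mitochondrially encoded genes took 5.57% and 5.13% of UMIs and ribosomal protein genes 36.6% and 39.5%. All 8 neuroblastoma markers on the list (among them PHOX2A, HAND2, ISL1, GATA3, DBH, CHGA and STMN2) were measured in both, with a summed level of 2329 CPM in sensitive and 3657 CPM in intermediate resistant cells. None of the Schwann cell, macrophage, lymphocyte, erythroid or adrenal cortex markers reached 5 CPM, and SOX10, CD3E, MS4A1, ALAS2 and C1QA had 0 UMIs. Of the fibroblast, endothelial and epithelial markers, 3, 1 and 1 reached it.

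With 1 library on each side no test was possible and no p-value was computed. Differences are described by their size, the intervals are exact 95% intervals that cover counting error only, and the drug condition, the resistance and the history of each culture cannot be told apart. For comparisons between cells, 9500 UMIs were drawn at random from each cell (thinning), which left 4907 sensitive and 5836 intermediate resistant cells and dropped 508 and 452 that were shallower. A share of cells means the percentage of these thinned cells with at least 1 UMI of a gene.

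Most genes had similar levels in both libraries. Of the 5045 tested genes, 4294 (85.1%) lay within 1.5-fold, and the median log2 ratio of intermediate resistant over sensitive cells was -0.08. There were 88 genes at least 2-fold higher (1.74% of tested genes) and 182 at least 2-fold lower (3.61%). Just inside these limits were log2 ratios of 1.0017 and -1.0046, and just outside them 0.97 and -0.9955; the limit on level fell between genes of 20.0001 and 19.9958 CPM. At 10-fold or more the counts were 14 higher and 8 lower. The 88 higher genes together took 1.68% of all UMIs in intermediate resistant cells against 0.602% in sensitive cells, and the 182 lower genes took 0.607% against 1.56%. By the share of cells, 26 genes were higher by at least 25 percentage points (0.515%) and 41 lower (0.813%). All of these were also among the genes called by level. The ranges that follow leave out mitochondrial genes, ribosomal protein genes and transcripts named after a clone. Of the remaining genes at 50 CPM or more, the 40 with the highest ratios were 1.88-fold to 149-fold higher. The 40 with the lowest ratios were 2.28-fold to 68.4-fold lower. Among the remaining tested genes, the 20 largest gains in share were 26.6 to 81.5 points, and the 20 largest losses 28.4 to 52.0 points.

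The genes with the highest ratios included peptide hormone precursors, proteins of dense core granules and enzymes of catecholamine synthesis. These groups are described first, with the promoters of 4 of their genes. The promoters are shown because the full cAMP response element TGACGTCA lies in each of them, although the genes went in both directions. The sequences are the 250 bases before the RefSeq start of each gene on GRCh38.p14, written 5′ to 3′ on the gene's own strand, with the element in capitals: SST at chr3:187670395-187670644, minus strand; CARTPT at chr5:71719025-71719274, plus strand; CHGA at chr14:92922900-92923149, plus strand; and VGF at chr7:101165570-101165819, minus strand.
SST: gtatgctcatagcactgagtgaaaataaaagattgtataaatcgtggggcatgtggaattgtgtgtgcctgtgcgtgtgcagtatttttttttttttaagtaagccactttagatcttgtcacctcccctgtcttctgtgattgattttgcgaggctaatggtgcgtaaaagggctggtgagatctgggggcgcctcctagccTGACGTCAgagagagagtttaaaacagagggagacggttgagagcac
CARTPT: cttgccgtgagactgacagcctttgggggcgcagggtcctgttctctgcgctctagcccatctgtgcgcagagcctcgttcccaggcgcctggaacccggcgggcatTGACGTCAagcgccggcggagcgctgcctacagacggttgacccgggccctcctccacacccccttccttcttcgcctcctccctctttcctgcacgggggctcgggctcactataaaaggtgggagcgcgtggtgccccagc
CHGA: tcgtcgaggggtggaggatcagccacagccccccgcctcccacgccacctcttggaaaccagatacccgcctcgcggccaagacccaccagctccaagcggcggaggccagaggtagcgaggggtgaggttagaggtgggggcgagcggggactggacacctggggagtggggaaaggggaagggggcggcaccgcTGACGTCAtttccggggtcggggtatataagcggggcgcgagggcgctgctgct
VGF: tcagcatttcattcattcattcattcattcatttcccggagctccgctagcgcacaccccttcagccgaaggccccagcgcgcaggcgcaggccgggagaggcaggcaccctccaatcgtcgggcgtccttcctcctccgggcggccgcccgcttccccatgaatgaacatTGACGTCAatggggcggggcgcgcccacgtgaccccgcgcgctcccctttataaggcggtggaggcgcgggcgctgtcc
The element starts 47 bases before the start of SST, 143 before that of CARTPT, 54 before that of CHGA and 79 before that of VGF. SST, CARTPT and CHGA were higher in intermediate resistant cells, and VGF was lower. The catecholamine gene SLC18A2 also has the element and is not shown. Promoters were searched for genes of at least 5 CPM in either library. The element was in 2 of 6 neuropeptide, 2 of 10 granin and processing, and 1 of 9 catecholamine genes with a promoter. Promoters without it include those of DBH, PCSK1N, ECEL1, NPY, TAC3, ARHGAP36, PKIB and HRK, which were all higher in intermediate resistant cells. For TH, CHGB and SCG2 no promoter sequence was available to search. TGACGTCA reads alike on both strands, and over the RefSeq window of 300 bases (250 before to 50 after the start) it is found in 540 of 27305 promoters (1.98%). Among tested genes with a promoter in that set it is in 152 of 3927 (3.87%), among the higher genes in 3 of 67 (4.48%: SST, CARTPT and RALGAPA1) and among the lower genes in 4 of 132 (3.03%: MCM10, SUV39H2, CTU2 and YWHAH). The share among higher genes is therefore close to that of all tested genes. These matches describe letters in a window, and binding was not measured.

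Neuropeptide precursors had the highest median of the gene lists described here. Of 33 genes on the list, 8 reached 5 CPM in either library; 6 of the 8 were at least 1.5-fold higher, 1 was lower and the median log2 ratio was 2.45. Among all 9529 genes at that level, 5.83% were 1.5-fold higher and 12.2% lower, with a median of -0.08. CARTPT, the precursor of the satiety peptide CART, had 2.90 CPM in sensitive and 290 CPM in intermediate resistant cells, 99.9-fold higher (88.7 to 113). SST, the precursor of somatostatin, had 53.3 CPM and 682 CPM, 12.8-fold higher (12.4 to 13.2). CRH, the precursor of corticotropin-releasing hormone, had 1.68 CPM and 58.6 CPM, 34.8-fold higher (29.8 to 41.0). All 3 are known as peptides of hypothalamic neurons. GHRH, the growth hormone-releasing hormone, went from 0.578 to 14.5 CPM, TAC3, the neurokinin B precursor, from 12.9 to 30.03 CPM, and NPY, neuropeptide Y, from 5.50 to 11.4 CPM. GAL, the galanin precursor and one of the most abundant peptides of both libraries, had 676 CPM and 770 CPM. NMB, neuromedin B, went the other way, from 50.03 to 24.7 CPM.

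The peptides differed in how they were spread over cells. SST was found in 31.1% of sensitive and 82.3% of intermediate resistant cells, and the median cell went from 0 to 3 UMIs. CARTPT was found in 2.14% and 44.0% of cells, so that most intermediate resistant cells still had none, while 416 of them (7.13%) had more than 10 UMIs and no sensitive cell did. The 10% of intermediate resistant cells with most CARTPT held 71.9% of its UMIs. CRH was found in 0.836% and 13.1% of cells, and the top 10% held 94.6%. SST lay between a general and a restricted pattern, with 54.3% of its UMIs in the top 10% of cells. The free RNA seen in barcodes of 10 to 100 UMIs was estimated to add 2.43 CPM to SST, 1.08 CPM to CARTPT and 0.179 CPM to CRH in the intermediate resistant library.

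**Figure D1:**
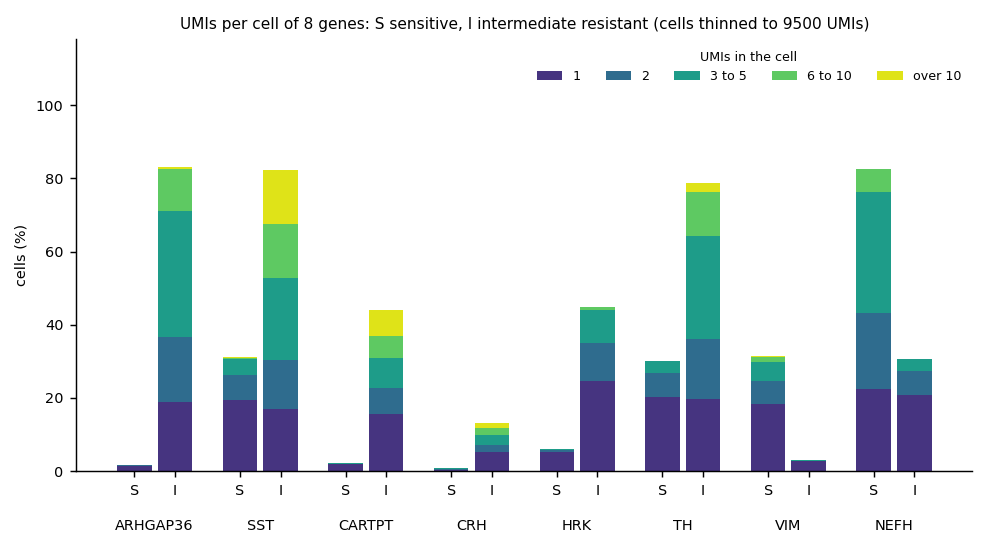
Percentage of cells (vertical axis) with 1, 2, 3 to 5, 6 to 10 or more than 10 UMIs of 8 genes, in sensitive (S) and intermediate resistant (I) cells thinned to 9500 UMIs; the part above each bar is cells with 0 UMIs. ARHGAP36 goes from 1.55% to 83.1% of cells, mostly at a few UMIs per cell, whereas CARTPT and CRH reach fewer cells with a wide range of UMIs.

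CARTPT-positive intermediate resistant cells also carried CRH more often, in 19.4% of them against 8.13% of CARTPT-negative cells, and TH in 87.2% against 72.4%. ARHGAP36, which encodes an inhibitor of protein kinase A, was less frequent in them, at 79.0% against 86.3%. Pearson correlations were taken on the natural log of 1 + UMIs in thinned cells. Across the 5836 intermediate resistant cells the correlation was 0.24 for CARTPT with CRH and 0.30 for CARTPT with TH. It was 0.35 for TH with DBH and 0.43 for IGF2 with DLK1. These cells share 1 library and a fixed depth, so the values describe that library.

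Granins and the enzymes that process them split by gene. Of 18 on the list, 13 were measured, 6 were 1.5-fold higher and 2 lower, with a median log2 ratio of 0.42. CHGA, chromogranin A, the main soluble protein of chromaffin granules, had 705 CPM in sensitive and 1286 CPM in intermediate resistant cells, 1.82-fold higher, and the median cell went from 6 to 12 UMIs. CHGB, chromogranin B, went from 48.4 to 105 CPM. SCG2 and SCG3, 2 further granins, were within 1.5-fold, at 7.49 and 10.0 CPM and at 113 and 117 CPM. PCSK1N, which encodes an inhibitor of the prohormone convertase PC1, was 6.51-fold higher (6.09 to 6.97), from 10.3 to 67.2 CPM and from 7.56% to 44.6% of cells. ECEL1, a neuronal endopeptidase of the neprilysin family, was 54.5-fold higher (44.4 to 67.5), from 0.988 to 53.9 CPM. CPE, the carboxypeptidase that trims peptide hormones, was 2.61-fold higher at 49.0 CPM. VGF, a granin-like precursor, was 6.91-fold lower (5.50 to 8.76), at 5.87 and 0.849 CPM, and ECE2, an endothelin-converting enzyme, was 1.77-fold lower.

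Among catecholamine genes the synthesis enzymes TH, DBH and DDC were higher, and transporters and other granule genes went both ways. TH, tyrosine hydroxylase, the rate-limiting enzyme, had 45.7 CPM and 292 CPM, 6.38-fold higher (6.18 to 6.59), and was found in 30.1% and 78.9% of cells. DBH, which makes noradrenaline from dopamine, had 153 CPM and 609 CPM, 3.99-fold higher (3.92 to 4.06), and was found in 61.5% and 95.9% of cells. DDC, the decarboxylase between them, was 2.01-fold higher, at 119 and 239 CPM. The vesicular transporters went apart: SLC18A1 had 5.33 CPM and 17.5 CPM, and SLC18A2 40.2 CPM and 33.3 CPM. SLC6A2, the noradrenaline transporter, was 1.83-fold lower. CYB561, the cytochrome that carries electrons into granules and so renews the ascorbate that DBH uses, was 3.14-fold lower (3.04 to 3.24), from 167 to 53.3 CPM. Over the 13 measured genes of the list 4 were 1.5-fold higher and 3 lower, with a median log2 ratio of -0.13.

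**Figure D2:**
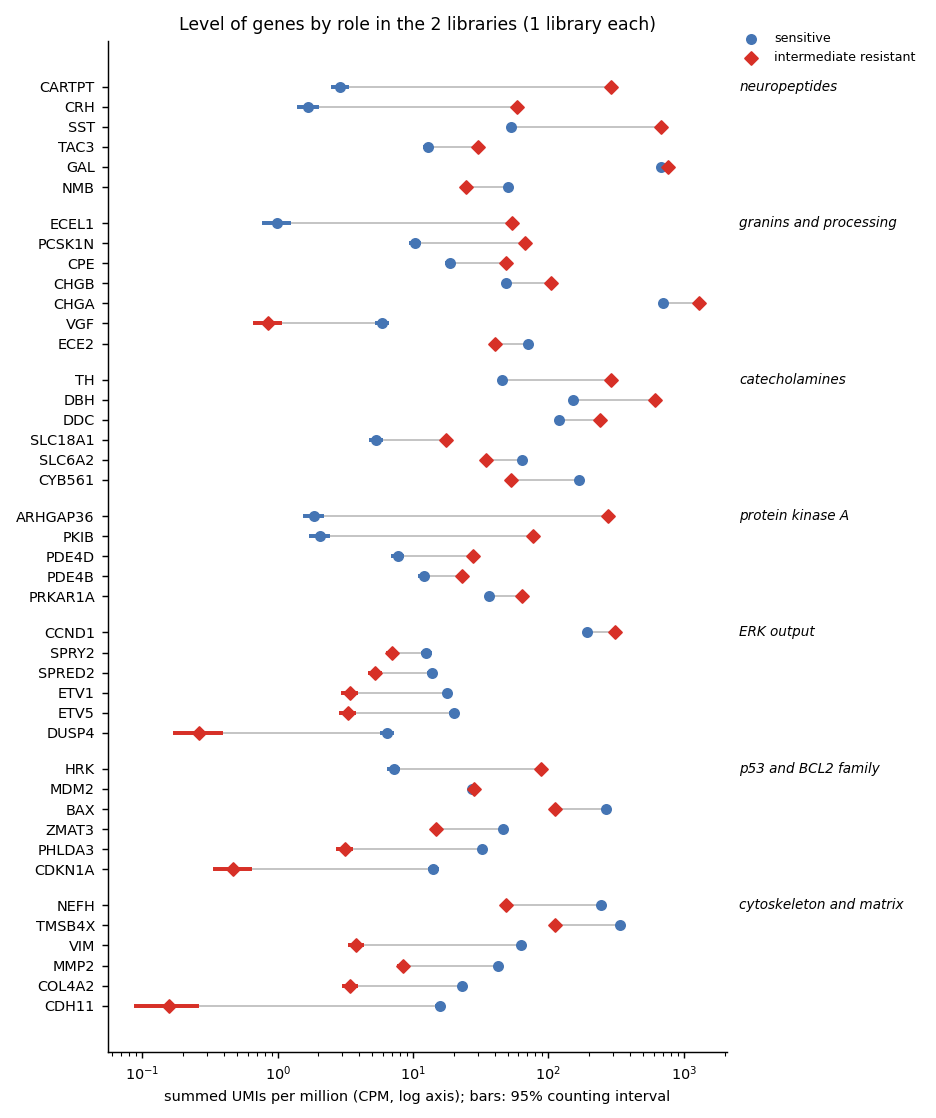
Summed level in CPM (horizontal log axis) of genes grouped by role, in the sensitive (circles) and intermediate resistant (diamonds) library, 1 library each; coloured bars are 95% counting intervals, often narrower than the symbol. CARTPT (2.90 to 290 CPM) and ARHGAP36 (1.84 to 275 CPM) lie farthest apart to the right, and CDH11, DUSP4 and CDKN1A farthest to the left.

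ARHGAP36 had the highest ratio of all genes above 50 CPM. It encodes a GTPase-activating-like protein that binds and blocks the catalytic subunit of protein kinase A. Its level was 1.84 CPM in sensitive and 275 CPM in intermediate resistant cells, 149-fold higher (129 to 174). It was found in 1.55% of sensitive and 83.1% of intermediate resistant cells, and it was the 1 gene of the 5045 that went from at most 20% to at least 80% of cells; 0 genes went the reverse way. Its UMIs were less concentrated than those of SST, CARTPT or CRH, with 27.3% in the top 10% of intermediate resistant cells. PKIB, an inhibitor peptide of the same kinase, was 38.0-fold higher (32.9 to 44.0), from 2.04 to 77.4 CPM, and in 38.2% of cells. The phosphodiesterases PDE4D and PDE4B, which break down cAMP, were 3.60-fold and 1.91-fold higher. The regulatory subunit PRKAR1A was 1.77-fold higher, while the catalytic subunits PRKACA (14.9 and 15.6 CPM) and PRKACB (5.51 and 5.15 CPM) and the G protein subunit GNAS (924 and 956 CPM) were within 1.5-fold. AKAP12, a scaffold of the kinase, was 1.61-fold lower, at 131 and 81.6 CPM. Over the 29 measured genes of cAMP and protein kinase A signalling, 5 were higher, 3 (ADCY7, ADCYAP1R1 and AKAP12) lower and 21 between, around a median log2 ratio of 0.00.

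ALK itself was scarce and hardly differed. It had 517 UMIs (5.44 CPM) in sensitive and 524 UMIs (5.11 CPM) in intermediate resistant cells, a ratio of sensitive over intermediate resistant of 1.06 (0.939 to 1.204), so the counting interval spans 1. MYCN, the oncogene that is amplified in this line, was 3.01-fold lower (2.98 to 3.04), at 1242 and 413 CPM. The median cell had 11 MYCN UMIs of 9500 in the sensitive and 3 in the intermediate resistant library, and MYCN was still found in 99.6% and 93.1% of cells. MYCNOS, on the opposite strand over MYCN, was 1.93-fold lower; reads of the 2 genes cannot be told apart if strand was not used in counting. Of 26 measured core targets of MYC proteins, 0 were higher and 3 were lower (ODC1, RUVBL1 and MTHFD1), with a median log2 ratio of -0.09, close to that of all genes. Of 35 measured genes of ribosome biogenesis 2 were lower (NOP56 and PES1), with a median of -0.19.

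Transcripts downstream of ERK were mostly lower. Of 23 genes on the list 9 were measured, 7 were lower and CCND1 was higher, with a median log2 ratio of -1.43. The ETS factors ETV5 and ETV1 were 6.10-fold (5.43 to 6.87) and 5.28-fold (4.70 to 5.94) lower, at 3.29 and 3.40 CPM in intermediate resistant cells. DUSP4, a phosphatase of ERK, had 613 UMIs against 27, 24.5-fold lower (16.6 to 37.4). The feedback inhibitors SPRED2 and SPRY2 were 2.66-fold and 1.79-fold lower. DUSP6, a further ERK phosphatase, had 3.91 and 2.04 CPM, too little to count as measured. CCND1, which encodes cyclin D1, was 1.62-fold higher, at 193 and 312 CPM. The immediate early gene IER2 had 28.9 and 26.7 CPM.

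Other receptors and adaptors moved in both directions. DOK4, an adaptor of receptor kinases such as RET, was 3.73-fold lower (3.65 to 3.81), from 370 to 99.3 CPM and from 94.0% to 53.1% of cells. RET, the kinase receptor of the GDNF family, was 5.79-fold lower, from 34.4 to 5.93 CPM, whereas GFRA3, the co-receptor of RET for artemin, was 26.6-fold higher (22.4 to 31.8), from 1.43 to 38.0 CPM and from 1.202% to 25.4% of cells. SHC3, a neuronal adaptor of receptor kinases, had 718 UMIs against 5. EGFR, the EGF receptor, was 2.74-fold higher at 26.5 CPM, and GRB2, the adaptor that links receptors to RAS, was 1.54-fold higher. PTPRG, a receptor tyrosine phosphatase, was 5.15-fold higher (4.90 to 5.42), from 19.1 to 98.4 CPM and from 15.5% to 55.9% of cells. IGF2, an insulin-like growth factor, and DLK1, a membrane protein of the Notch ligand family, were among the largest gains in absolute level, from 456 to 1250 CPM and from 1005 to 2374 CPM. Both are imprinted genes, of which 12 were measured on a list of 25, with 5 higher, 0 lower and a median log2 ratio of 0.25.

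Genes on the list of p53 targets were lower or within 1.5-fold, and 0 of 20 measured were 1.5-fold higher. Of these, 11 were lower, with a median log2 ratio of -0.60. CDKN1A, the cell cycle inhibitor p21, had 1344 UMIs in sensitive and 48 in intermediate resistant cells, 30.2-fold lower (22.6 to 41.1), at 14.1 and 0.469 CPM. PHLDA3, an inhibitor of AKT, was 10.3-fold lower, ZMAT3, an RNA-binding protein, 3.11-fold lower and RPS27L 1.80-fold lower. MDM2, which encodes a ubiquitin ligase and is also a p53 target, had 27.3 and 28.1 CPM. CDKN2A, which encodes p16 and ARF, was 3.97-fold higher (3.66 to 4.30), at 7.88 and 31.3 CPM.

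In the BCL2 family 1 gene was higher and 7 lower of 16 measured. HRK, a BH3-only protein that promotes apoptosis in neurons, was 12.2-fold higher (11.3 to 13.2), from 7.19 to 87.6 CPM and from 5.95% to 44.8% of cells. BAX, a pore-forming effector of apoptosis, was 2.39-fold lower (2.34 to 2.44), from 266 to 111 CPM and from 88.9% to 61.8% of cells, and its median went from 2 UMIs per cell to 1. BID, BOK, BBC3 and BCL2L12 were also lower, and BCL2, the founding survival protein, was 3.39-fold lower at 9.67 and 2.85 CPM. MCL1 and BCL2L1, the other main survival genes, were within 1.5-fold, at 40.9 and 41.7 CPM and at 19.4 and 18.7 CPM.

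Genes of the mesenchymal state, matrix, adhesion and axon guidance were more often lower. The counts were 1 higher and 8 lower of 16 mesenchymal genes (median log2 ratio -0.57), 2 and 10 of 25 matrix and adhesion genes (-0.49), and 1 and 9 of 20 axon guidance genes (-0.43). VIM, the intermediate filament vimentin, was 16.5-fold lower (14.8 to 18.3), from 62.6 to 3.81 CPM and from 31.4% to 2.96% of cells. CDH11, a mesenchymal cadherin, had 1501 UMIs against 16. MMP2, a matrix protease, was 5.004-fold lower, COL4A2, a basement membrane collagen, 6.75-fold lower, VCAN, a proteoglycan, 3.36-fold lower and ITGB1, the common integrin beta chain, 2.52-fold lower. The netrin receptors UNC5B and UNC5C were 2.57-fold and 3.002-fold lower. In the cytoskeleton list, NEFH, the heavy neurofilament subunit, was 5.09-fold lower (4.93 to 5.25), from 245 to 48.3 CPM and from 82.6% to 30.7% of cells, and TMSB4X, the actin-binding thymosin beta 4, was 3.01-fold lower. TIMP1 (54.0 and 53.1 CPM), TWIST1 (65.0 and 53.8 CPM) and NCAM1 (52.7 and 44.6 CPM) were within 1.5-fold. Markers of fibroblasts, of which COL1A2 had 0 UMIs, summed to 41.6 CPM in sensitive and 44.1 CPM in intermediate resistant cells. Of the 3 that were measured, PDGFRA was higher, PDGFRB lower and 1 within 1.5-fold.

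Some of the largest losses stood outside these groups. SHISA5, a membrane protein linked to p53-dependent apoptosis, was 26.5-fold lower (22.8 to 31.1), from 44.3 to 1.67 CPM and from 34.1% to 1.63% of cells. CAMK2N1, which holds calmodulin-dependent kinase in check, went from 44.7% to 7.09% of cells and was 7.83-fold lower. METRN, a secreted factor for glia and neurites, had 141 and 23.6 CPM, and STRA6, the retinol transporter, was 10.9-fold lower. CRABP1, which binds retinoic acid in the cytosol, was 4.46-fold lower, while the receptor RARA was 1.66-fold higher. GSTP1, a glutathione transferase and one of the more abundant genes, was 2.23-fold lower at 956 and 429 CPM, and MGST1, its membrane relative, 8.01-fold lower. Cancer-testis genes gave 1 higher and 4 lower of 8 measured: CTAG2 was 68.4-fold lower, CSAG1 6.70-fold and MAGEA12 8.75-fold lower, and MAGEA6 4.59-fold higher. These genes have near copies on chromosome X with which reads could be shared, so their levels are uncertain, as is that of GAGE2A (26.5 and 99.9 CPM).

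Among further gains, UBB, a polyubiquitin gene, was 3.80-fold higher, at 116 and 440 CPM, and the median cell went from 0 to 4 UMIs. The homeobox factor MEIS2 and the zinc finger factor INSM2 were 2.74-fold and 2.03-fold higher. Ribosomal protein genes lay mostly within 1.5-fold (77 of 84 measured), but RPL22L1 was 4.73-fold higher (4.64 to 4.83), at 129 and 612 CPM, while its paralog RPL22 was 1.77-fold lower, at 2449.6 and 1385 CPM. CD300LG, a receptor of the immunoglobulin family, had 0 UMIs in sensitive cells and 2378 in intermediate resistant cells, at least 736-fold higher with 3 UMIs over the library as the floor. DHRS2, a mitochondrial reductase, had 46 and 2093 UMIs, which lay in 0.224% and 4.39% of cells.

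**Figure D3:**
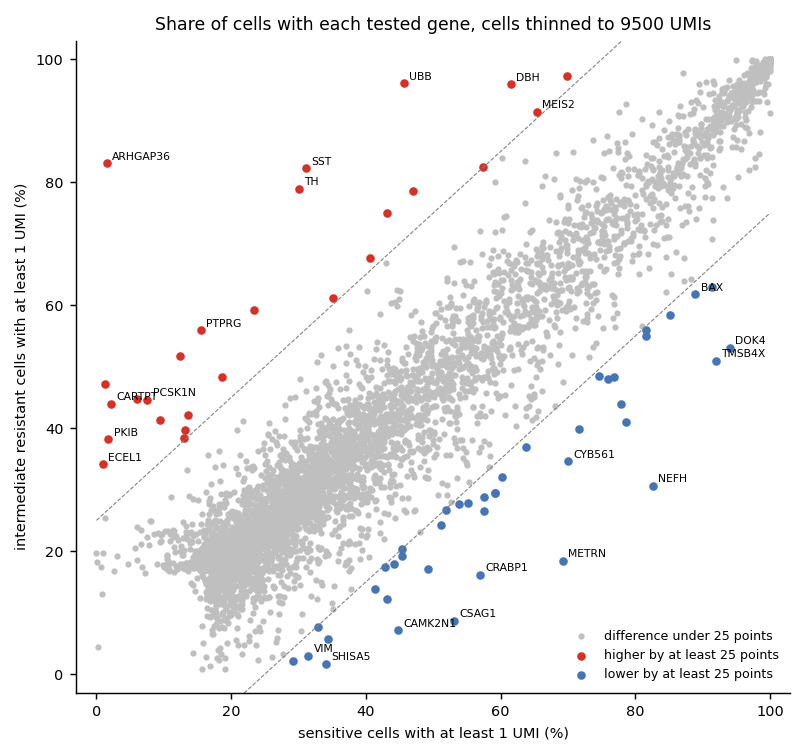
Percentage of sensitive (horizontal axis) and intermediate resistant (vertical axis) cells with at least 1 UMI of each of 5045 tested genes, cells thinned to 9500 UMIs; dashed lines mark a difference of 25 percentage points. The 26 genes above the upper line include ARHGAP36, which is alone at the upper left, and the 41 below the lower line include NEFH, METRN and SHISA5.

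Several programmes differed little over all cells. Of 38 measured S phase genes 1 was higher and 1 lower, with a median log2 ratio of -0.04, and of 53 genes of G2 and M phase 0 were higher and 1 lower, with a median of -0.07. Over the 50% of cells of each library with the smallest share of UMIs from these lists, the medians were -0.24 for S phase and -0.62 for G2 and M phase genes; these cells were chosen by the same genes. The 58 genes of oxidative phosphorylation gave 1 and 3 (-0.06), 32 proteasome genes 1 and 1 (-0.16), 42 chromatin modifiers 1 and 1 (-0.02), and 16 genes of CTCF and cohesin 0 and 0 (-0.08). The sign of the S phase, oxidative phosphorylation and chromatin medians, like that of the cAMP list, turned under other scalings or cell choices. Endoplasmic reticulum chaperones were slightly higher as a list (median 0.18, 2 higher and 0 lower of 39), with HSP90B1 at 1.96-fold and HSPA5 at 1.56-fold. RGS5, the regulator of G protein signalling that was among the most abundant genes in both, had 3031 and 3041 CPM.

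A part of the differences followed chromosome position. Of the 5045 tested genes, 5003 could be placed by gene order in GENCODE 29, and a running median of the log2 ratio over 15 neighbours was taken along each chromosome. Runs of at least 10 genes whose running median departed by 0.3 or more from that of all tested genes numbered 14, with 7 higher and 7 lower. They were found from these ratios, so what follows describes them and tests nothing. The 7 lower runs held 379 genes (7.51% of those tested) and 80 of the 182 lower calls (44.0%), and 21.1% of their genes were called lower, against 3.61% of all tested genes. The 7 higher runs held 334 genes (6.62%) and 25 of the 88 higher calls (28.4%). Outside the runs 62 genes were higher (1.43%) and 101 lower (2.33%). DNA copy number was not measured.

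The steepest lower run was on chromosome 10, from UPF2 to ZNF33A. Its 36 genes had a median log2 ratio of -1.19, 31 of them were called lower, and they include VIM, ZEB1, ITGB1, NRP1, the kinesin gene KIF5B and the Polycomb gene BMI1. VIM, at a log2 ratio of -4.04, was far below its neighbours, while ITGB1 (-1.33) and ZEB1 (-1.36) were close to the run's median. A further 27 genes of the run that were too low to be tested had a median of -1.07, and all 27 lay below the median of tested genes. On chromosome 16 a run from ITFG1 to DEF8 held 97 genes with a median of -0.73, of which 96 lay below the median of tested genes and 21 were called, among them DOK4, MMP2 and COX4I1. All 144 tested genes of chromosome 22 formed 1 run with a median of -0.58, in which 139 lay below and 19 were called lower, among them NEFH, TSPO and CHCHD10. The end of chromosome 17 held 2 adjacent runs of opposite sign, 38 genes from NOL11 to UBE2O at 0.52 and 43 genes from AFMID to FN3KRP at -0.59.

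The steepest higher run opened chromosome 11, from RIC8A to TEAD1. Its 47 genes had a median log2 ratio of 0.88 and 16 were called higher, among them TH, IGF2, the RAS gene HRAS and RPL27A. TH (2.67) and IGF2 (1.45) exceeded the run's median, and HRAS was 2.17-fold higher. On chromosome 12, 2 neighbouring runs of 123 and 67 genes had medians of 0.38 and 0.37 and included HRK, TAC3 and DDIT3. The run on chromosome 9 that includes DBH has 23 genes and a median of 0.40. ARHGAP36, SST, CARTPT, CRH, PKIB, ECEL1, MYCN and BAX lay in no run.

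**Figure D4:**
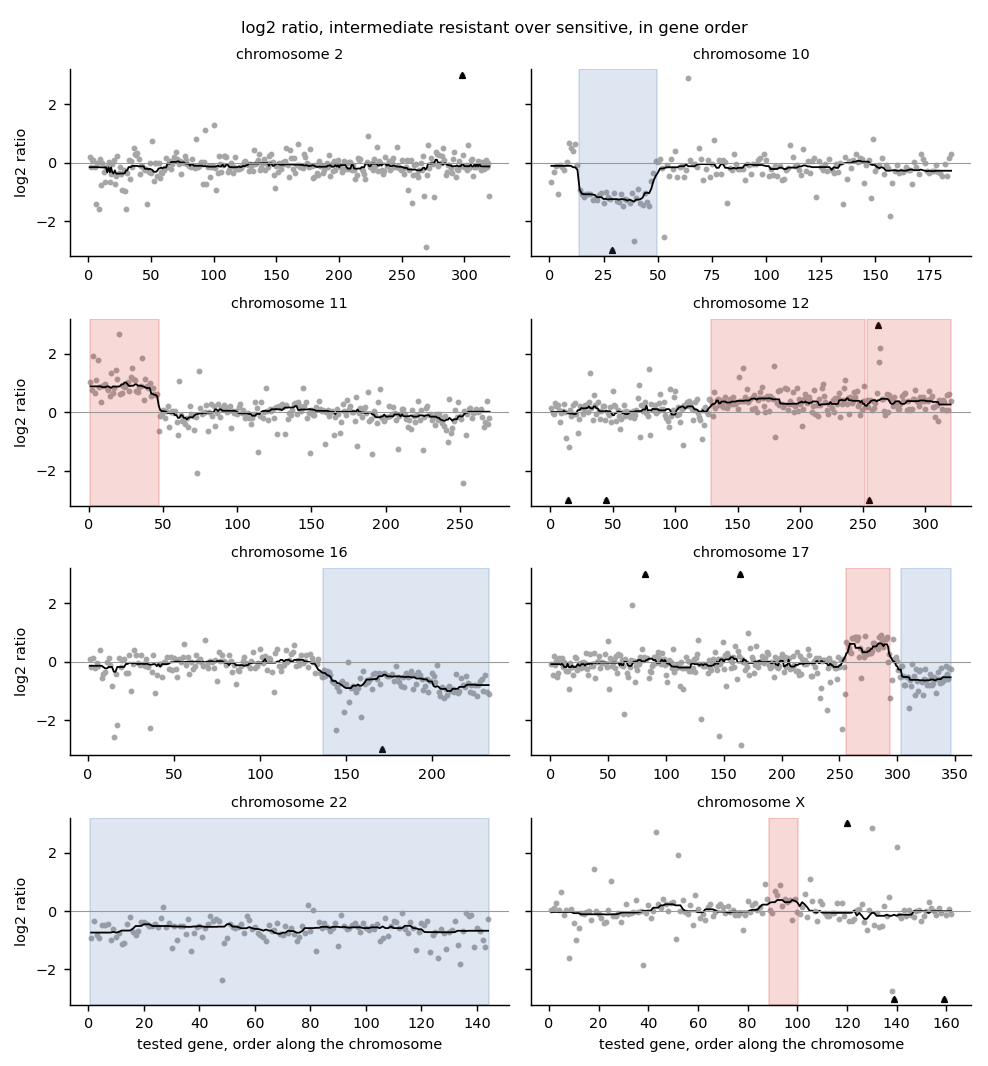
The log2 ratio of intermediate resistant over sensitive level (vertical axis) of each tested gene (dots) in its order along 8 chromosomes (horizontal axis), with the running median over 15 genes (line); red and blue bands mark higher and lower runs, and triangles mark genes beyond the axis limit of 3. Chromosome 2, which holds MYCN, has no run, and all of chromosome 22 lies in 1 lower run.

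The runs could be read in single cells, by the UMIs that a cell thinned to 9500 UMIs held in all genes of a run. These sums are not weighted by gene, so the most abundant genes of a run count most. Ribosomal protein genes are among the members on chromosomes 11, 12, 16 and 22. On chromosome 11 the median went from 57 in sensitive to 121 in intermediate resistant cells, and in 98.7% of pairs of 1 cell from each library the intermediate resistant cell had more. On chromosome 22 the medians were 236 and 167. On chromosome 16 they were 161 and 88, but a part of the intermediate resistant cells stayed at the sensitive level: 675 of 5836 cells (11.6%) were at or above 137, the 5th percentile of sensitive cells. On chromosome 12 the medians were 319 and 423. Intermediate resistant cells were widely spread there, with peaks in the bins from 300 and from 430 UMIs. Their variance over mean was 9.22, against 1.55 in sensitive cells. The reverse was seen on chromosome 22, where 547 of 4907 sensitive cells (11.1%) had 193 UMIs or fewer, which is the 95th percentile of intermediate resistant cells.

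**Figure D5:**
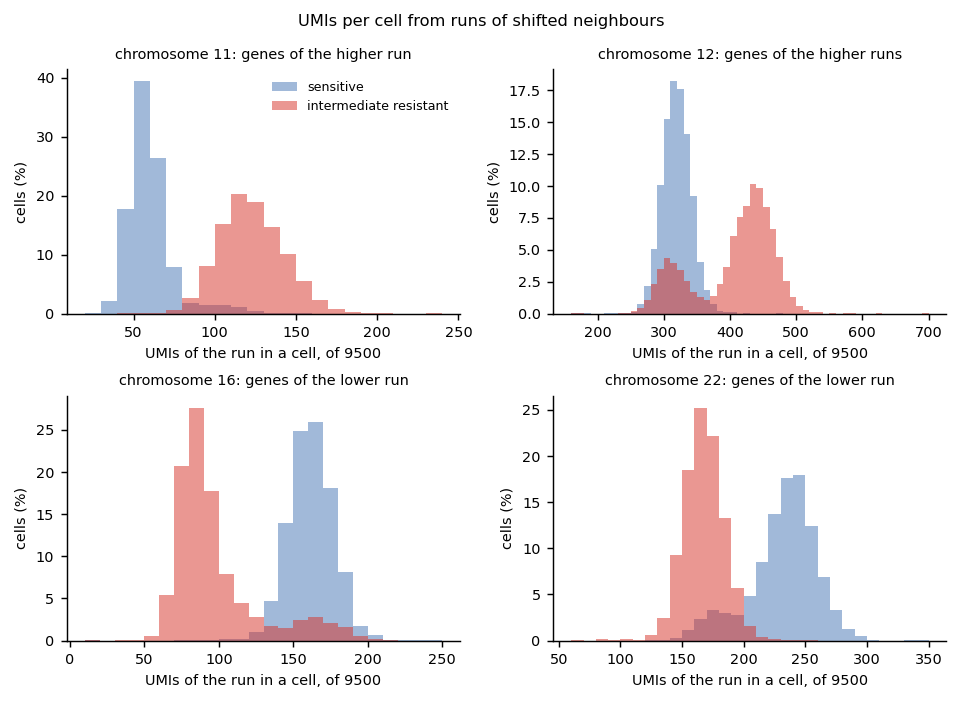
Percentage of cells (vertical axis) by the UMIs of 9500 that fell in the genes of shifted runs on chromosomes 11, 12, 16 and 22 (horizontal axis, bins of 10 UMIs), in sensitive (blue) and intermediate resistant (red) cells. Chromosome 11 separates the libraries (medians 57 and 121), whereas on chromosomes 12 and 16 some intermediate resistant cells, and on chromosome 22 some sensitive cells, lie at the level of the other library.

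Intermediate resistant cells were therefore grouped by whether the chromosome 12 runs exceeded 354 UMIs, the 95th percentile of sensitive cells, and whether the chromosome 16 run was below 137. In intermediate resistant cells each range had a lower and a higher peak, with fewer cells between them. For the chromosome 12 runs the bins of 10 UMIs from 300, 360 and 430 held 254, 64 and 591 cells. For the chromosome 16 run the bins from 80, 140 and 160 held 1612, 87 and 160 cells. The limits fall near these troughs, but no bin between the peaks was empty. Within 10 UMIs of the chromosome 16 limit lay 204 cells. Both shifts were present in 4362 cells (74.7%), the chromosome 16 shift without that of chromosome 12 in 799 (13.7%), neither in 622 (10.7%) and the chromosome 12 shift alone in 53 (0.908%). Cells with neither shift still had medians of 133 UMIs in the chromosome 11 run, 6 in the chromosome 10 run and 167 in the chromosome 22 run, against 117, 7 and 168 in cells with both. Their chromosome 13 runs stood at 21 UMIs against 33 in cells with both and 41 in sensitive cells.

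The named genes differed among these groups of cells. CARTPT, on chromosome 5, was found in 33.6% of cells with both shifts, 80.5% of cells with the chromosome 16 shift alone and 67.4% of cells with neither, at means of 1.28, 9.36 and 5.68 UMIs per cell. CHGB was found in 40.3%, 63.1% and 76.4% in that order, and TH in 75.8%, 85.7% and 90.8%. CHGB lies in the run on chromosome 20, whose medians in these groups were 9, 13 and 14 UMIs. TH lies in the chromosome 11 run, with medians of 117, 131 and 133 UMIs. Both runs thus rose in the same order, and each sum includes the gene itself. ARHGAP36 was instead most frequent in cells with both shifts, in 89.3%, 72.7% and 56.1%. HRK was found in 50.8%, 30.8% and 22.3%. It is a gene of the chromosome 12 runs, so its own UMIs helped to define the groups and its order is partly built in. SST was found in 82.8%, 82.2% and 77.8%, at means of 7.48, 4.10 and 3.45 UMIs per cell, so its level was highest in cells with both shifts while its share of cells differed little. DBH was found in 95.6%, 97.5% and 95.8%. MKI67, a marker of cycling cells, was found in 53.8%, 36.3% and 34.9%. The part of the cell cycle in these differences was not tested. These are cells of 1 culture, so the groups are not replicates.

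Some sensitive cells lay at the intermediate resistant level of a run. At or above 92 UMIs in the chromosome 11 run and at or below 193 in the chromosome 22 run were 21 of 4907 cells (0.428%), while 183 (3.73%) met the first limit alone and 526 (10.7%) the second alone. The 547 cells with a low chromosome 22 run had 0.287 UMIs of PCSK1N per cell against 0.0725 in the other 4360, and 1.78 UMIs of UBB against 1.10. HRK was also higher in the 547 cells, at 0.122 against 0.0601, and DBH was lower, at 1.17 against 1.46. Means of CARTPT (0.0293 and 0.0257) and MYCN (11.5 and 12.2) were closer, and ARHGAP36 was rare in both sets (0.0219 and 0.0151).

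Levels in the fully resistant library are set side by side with these, and no overlap of the 2 comparisons is read, since both share the sensitive library as control. ARHGAP36 had 338 CPM and PKIB 360 CPM in fully resistant cells, and MYCN 446 CPM. CARTPT had 28.5 CPM there, CRH 5.09 CPM, HRK 4.12 CPM, PTPRG 3.05 CPM, GFRA3 1.30 CPM and MEIS2 44.2 CPM, all below their intermediate resistant level. HRK, PTPRG and MEIS2 were also below their sensitive level there, and GFRA3 was close to it. CDKN2A had 0.0471 CPM there. TMSB4X (2968 CPM), CRABP1 (488 CPM), MGST1 (236 CPM), CSAG1 (155 CPM) and CDKN1A (36.5 CPM) were lower than sensitive in intermediate resistant cells but above it in fully resistant cells. SHISA5 had 27.1 CPM and BAX 224 CPM, between the other libraries. Most chromosome runs were shifted to the same side in fully resistant cells. Their median log2 ratio over sensitive cells was 0.92 in the chromosome 11 run, -0.89 in that of chromosome 10 and -0.87 in that of chromosome 16. Shifts to the same side were also seen on chromosomes 9 (0.69), 12 (0.67 and 0.57), 17 (0.64 and -0.47), 18 (0.70), 22 (-0.49) and X (0.50). The medians were 0.04 and -0.09 in the chromosome 13 runs and 0.08 in the chromosome 20 run. These 3 runs stood at -0.44, -0.44 and -0.54 in intermediate resistant cells. All runs were found from the intermediate resistant ratio over the same sensitive library, so a part of this likeness can be built in.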

How the data were processed

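Kelly cells were profiled by droplet single-cell RNA sequencing, with 1 library per state. The deposited values are raw UMI counts per gene and barcode, which the authors made with bcl2fastq and Cell Ranger on hg19, per the submitters' processing notes; versions are not given in the sources used here. No per-sample column was left unused (0).

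UMIs of all cells of a library were summed and scaled to CPM, and no row was dropped for its name. Ratios have exact conditional Poisson intervals and levels exact Poisson intervals (95%), which cover counting error only. Cells were thinned without replacement to 9500 UMIs with a fixed seed. A gene at 0 UMIs was set to 3 UMIs per library for a ratio. Doublets were kept, and cells above the 95th percentile of UMIs were left out as an alternative. Free RNA was estimated from barcodes of 10 to 100 UMIs, at their mean UMI total per cell. Gene lists count members of at least 5 CPM in either library that differ 1.5-fold. Chromosome and order came from GENCODE 29 and promoters from RefSeq GRCh38.p14; since the files use hg19, no gene coordinates of the files are printed. How strand was used in counting is not given in the sources used here, so genes that overlap an antisense gene (MYCN and MYCNOS, IGF2 and IGF2-AS) are uncertain.

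The genes, lists and rules were chosen with earlier results of these data known. Outside mitochondrial, ribosomal protein and clone-named genes, the rule named the 40 highest and 40 lowest ratios at 50 CPM or more, the 20 largest gains and losses in share, the 15 largest in CPM, up to 6 members per list and a set of genes of the pathway. VGF, GHRH, NPY, SLC18A1, ETV1, DUSP4, SPRED2, SHC3, CDH11, BCL2, CD300LG, DHRS2, RPL22L1, RPL22, RPL27A and other genes outside it were chosen after their values were seen, as were the chromosome runs and the cell classes cut from them.

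Python 3.11.15, numpy 2.4.6, scipy 1.17.1, pandas 2.3.3 and matplotlib 3.10.9 were used. edgeR 4.0.16 and DESeq2 1.42.0 in R 4.3.3 gave scaling factors only, as alternatives, and no model was fitted. The level comparison was checked on simulated data with known changes.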

Additional observations from a re-analysis of the deposited data

How the results depend on the processing

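The number of genes at least 2-fold higher was 88, and it was 145 when mitochondrial and ribosomal protein genes were left out of the scaling, 227 with a minimum of 5 CPM, 40 with a minimum of 50 CPM and 3036 with no minimum, where few UMIs set many ratios. The number at least 2-fold lower was 182, and it was 458, 74 and 3134 under those 3 minimums. The other scalings, cell limits, doublet, free RNA and cell cycle alternatives gave 82 to 95 higher and 147 to 207 lower. The scaling without mitochondrial and ribosomal protein genes gave 231 lower, of which 152 were among the 182. Thinned to 5000 UMIs, 15 genes in place of 26 were higher in share by 25 points and 17 in place of 41 lower. Without the genes of the shifted runs, an alternative chosen after seeing the data, 101 genes were lower by level and 27 by share. Of the 116 named genes that differed 2-fold, 113 to 116 still did under each alternative for scaling or cells; those that fell short under at least 1 of them include COX4I1, NMB, MVK, HIST1H2BK and SCG5. No named gene at 2-fold or more changed direction. List medians near 0 changed sign under some alternatives: G1, S phase, cAMP, cholesterol, chromatin, heat shock, mitochondrial import, oxidative phosphorylation, proneural, retinoid and ion channel genes. No paired analysis was possible because each state has 1 library. The spread between cultures is unknown, and intervals cover counting error only.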
